A study of Mus musculus with 18 samples.

Results

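Weakly open chromatin at CHD8 binding sites was examined in splenic regulatory T cells (Tregs). The regions were selected on the measured ATAC and CHIP peaks, as ATAC-seq peaks on chromosomes 1 to 19 whose mean signal over 3 libraries (WT, KO1 and KO2) was under 8.4 TPM and that overlapped an anti-CHD8 CHIP-seq peak by at least 1 bp. There were 754 such regions among 81800 ATAC peaks, or 12.8% of the 5904 autosomal ATAC peaks at CHIP peaks and 1.90% of the 39789 weak autosomal peaks. They were compared with the 39035 weak autosomal peaks that overlapped no CHIP peak and, where the contrast helps, with the 5150 strong peaks at CHIP peaks, whose mean signal was 8.4 TPM or more. TPM is a read count scaled by peak length and by the total over all peaks of a library, so it is a share of the signal in peaks and not an absolute amount of open chromatin.

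The study asked what loss of the chromatin remodeler CHD8 does to Tregs, with RNA-seq, ATAC-seq and CHIP-seq of spleen cells. The Chd8-/- mice carry CHD8Flox/FloxFoxp3YFP-Cre, in which Cre and YFP are expressed from the X-linked Foxp3 locus. The labels give the WT samples the genotype CHD8flox/floxFoxp3YFP-Cre/+, with both Chd8 alleles floxed. The study instead describes its WT mice as Chd8+/+ with Foxp3YFP-Cre. Its grouping was used, and the conflict was not resolved here. A Poly IC injection is given as the treatment of every sample, and the labels give no age, while the methods state that mice of 5 to 7 weeks were used. ATAC-seq had 1 WT mouse, a male, and 2 Chd8-/- mice (KO1 and KO2), of which 1 was male and 1 female. Which of the 2 is which is not stated, so 1 of them differed from WT in sex as well as genotype. CHIP-seq had 2 mice labelled with the WT genotype, where the methods name C57B6/J mice, and RNA-seq had 2 mice per genotype. The labels list 2 libraries for each ATAC-seq and CHIP-seq mouse and the values have 1 column per mouse. All cells are labelled as Tregs. For ATAC-seq and RNA-seq they were sorted as CD4+ YFP+ cells, and for CHIP-seq they were isolated as CD4+ CD25+ cells.

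CHD8 belongs to the chromodomain helicase DNA-binding family, whose members use ATP to slide, evict or space nucleosomes. ATAC-seq reads out where a transposase can insert into DNA, so that nucleosome-free promoters and enhancers give high peaks and partly packed elements give low ones. CHIP-seq of a remodeler marks where it sits in the genome, which need not be where its loss has the largest effect.

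Chd8, the targeted gene, was listed at 24.7 and 27.6 TPM in the WT libraries and at 14.9 and 11.4 TPM in the Chd8-/- libraries. Its log2 fold change was -0.95 ± 0.29 (SE, n = 2 mice per genotype), with an adjusted p of 0.455 in limma. The values were thus lower in both Chd8-/- libraries without passing a threshold of 0.05. Of the 15240 genes tested 0 passed that threshold, so not passing it is not particular to Chd8. By qPCR the study found Chd8 markedly reduced in Chd8-/- Tregs. Foxp3, the defining transcription factor of Tregs, was at 202.8 and 215.4 TPM in WT and at 232.1 and 205.3 TPM in Chd8-/- libraries. The 6 Treg markers and the 4 of 5 T cell markers that are listed were all at 1 TPM or more in the 4 libraries. The summed level of the CD8 T cell markers was between 9.4 and 37.8 TPM, and that of the NK cell markers was at most 4 TPM. B cell markers summed to between 29.7 and 139.6 TPM. Markers of myeloid cells summed to 75 to 97.2 TPM in WT and to 25.7 to 1435 TPM in Chd8-/- libraries, and those of erythroid cells to 330.4 to 370.2 and to 0.7 to 1982 TPM. These levels come from other libraries than the ATAC values, and the part of such cells in the ATAC signal was not tested. In bulk cells a peak that is open in more cells and a peak that is more open in each cell cannot be told apart.

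The regions were less accessible in WT than in either Chd8-/- mouse. Their median signal was 3.6 TPM in WT, 5.2 TPM in KO1 and 4.3 TPM in KO2. The bulk of values, from percentile 10 to 90, overlapped widely between libraries, at 1.3 to 6.6 TPM in WT, 2.7 to 8.37 TPM in KO1 and 2.4 to 7.1 TPM in KO2. Within a region the order was more uniform than these ranges show. WT was the lowest of the 3 libraries in 535 regions, or 71.0%, and the highest in 72, or 9.55%. Over all autosomal peaks both Chd8-/- mice were above WT in 40.5% and both were under WT in 36.8%. Among weak peaks away from CHIP peaks the medians were 4.9, 5.3 and 5.1 TPM in WT, KO1 and KO2, and both Chd8-/- mice were above WT in 45.8%. The medians at CHIP peaks lay under those of the other weak peaks by the most in WT and by the least in KO1.

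**Figure D1:**
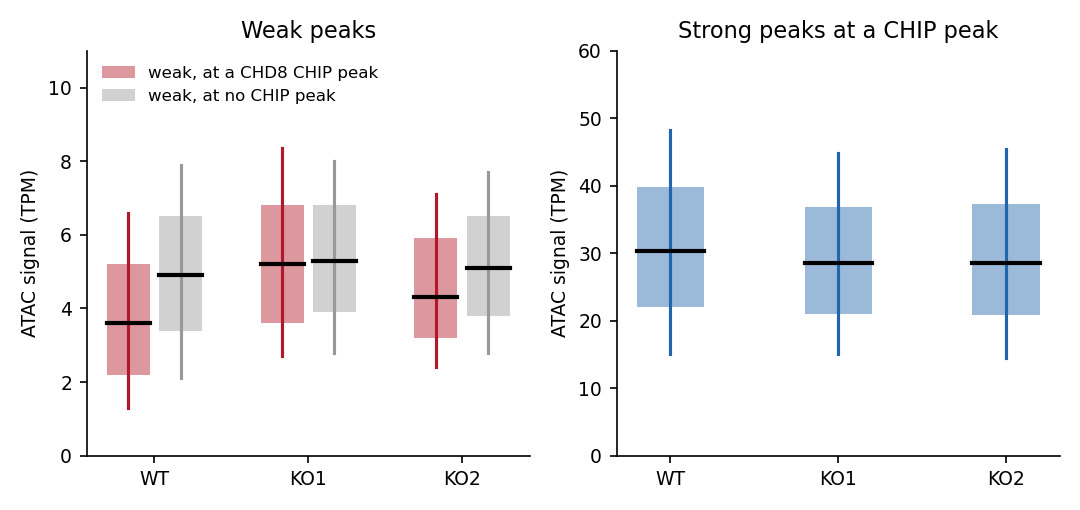
ATAC signal in TPM in the WT, KO1 and KO2 libraries for weak peaks at CHD8 CHIP peaks (red, 754), weak peaks at no CHIP peak (grey, 39035) and strong peaks at CHIP peaks (blue, 5150). Black bars are medians over peaks, boxes span percentiles 25 to 75 and lines percentiles 10 to 90. In the red boxes the WT median of 3.6 TPM lies under those of KO1 (5.2) and KO2 (4.3), while in the blue boxes the WT median of 30.4 TPM lies above both others at 28.6.

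The change was taken as the mean of KO1 and KO2 against WT on the log2(TPM + 0.84) scale, with the study's log2 cutoff of 0.4. A fold on this scale understates the change of low peaks. At the same cutoff the study reports fewer changed ATAC peaks than are found here, in all and over all CHD8 binding sites. The scaling behind its fold changes is not stated, so the counts below cannot be set beside its own. With 1 WT mouse there is no replicate check on the WT value, and since the levels that chose the regions are those of the same 3 libraries, the shares below are descriptions with no test. In all, 310 regions or 41.1% were higher without Chd8 and 16 or 2.12% were lower, where 17.6% and 9.76% of all autosomal peaks were. The cutoff was passed in each Chd8-/- mouse by 226 regions upwards and by 11 or 1.46% downwards. The corresponding shares of all autosomal peaks were 12.7% and 6.43%. The median log2 change of the regions was 0.33, with percentiles 10 and 90 at -0.13 and 0.81, against 0.08 with percentiles at -0.51 and 0.74 for weak peaks at no CHIP peak and 0.02 for all autosomal peaks.

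Weak peaks at no CHIP peak had slightly higher signal, so their shares were also weighted to the regions' own distribution over 4 bands of mean signal. So weighted, 27.4% were higher and 14.5% were lower without Chd8, and both Chd8-/- mice were above WT in 46.7%. The regions exceeded these peaks by 13.8 percentage points among higher peaks and lay 12.4 points under them among lower peaks. The spread was also narrower at CHIP peaks, with an SD over peaks of the log2 change of 0.36 against 0.52. The regions were also broader, with a median width of 557 bp against 265 bp. Neither these SDs nor the shares at a log2 change of 1 or -1 that follow were weighted by signal or width. A log2 change of 1 or more was seen in 29 regions, or 3.85%, and in 4.43% of weak peaks at no CHIP peak. A log2 change of -1 or less was seen in 0 regions and in 706 of the other weak peaks, or 1.81%. The excess at CHIP peaks was therefore one of moderate differences between log2 0.4 and 1, and at the cutoff of 1 the regions lay under the other weak peaks.

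The 2 Chd8-/- mice were not alike at these regions. Taken alone against WT, KO1 put 386 regions past the cutoff upwards and KO2 put 247, or 51.2% and 32.8%, while weak peaks of like signal at no CHIP peak gave 28.3% and 27.3%. Downwards the counts were 16 in KO1 and 35 in KO2. KO1 was above KO2 in 579 regions, or 76.8%, but in 52.6% of the other weak peaks. The median log2 difference of KO1 over KO2 was 0.19 in the regions and 0.03 in the other weak peaks, whereas KO2 over WT had a median of 0.24 and KO1 over WT of 0.42. The distance between the Chd8-/- mice at these regions was hence close to the distance between KO2 and WT. In 309 of the 310 higher regions both Chd8-/- mice were above WT, and in 242 of them KO1 was the higher of the pair.

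**Figure D2:**
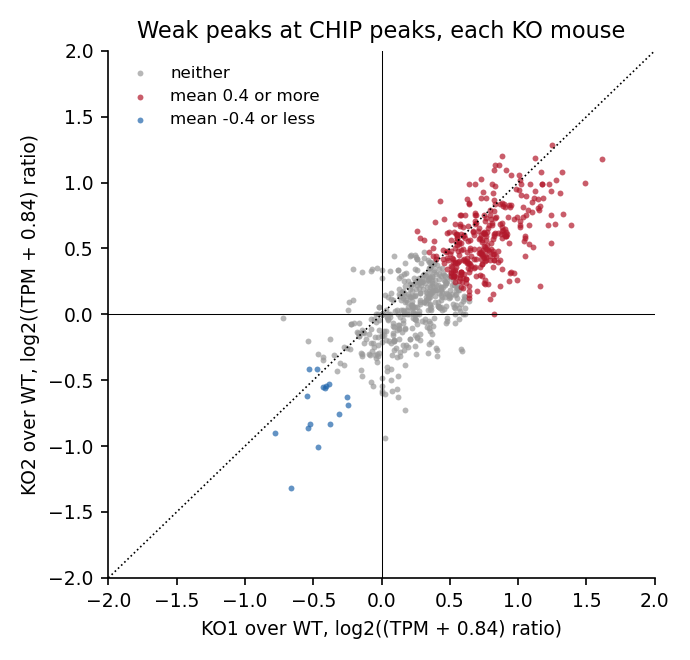
Log2 ratio of TPM + 0.84 to WT in KO1 (horizontal) and KO2 (vertical) for each of the 754 weak peaks at CHD8 CHIP peaks. Red points have a mean-based log2 change of 0.4 or more (310), blue of -0.4 or less (16) and grey neither, and most points lie right of the dotted line of equality because KO1 was above KO2 in 579 regions.

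The difference depended on how open a region was. In the lowest band, under 2 TPM, 10 of 49 regions or 20.4% were higher without Chd8, against 17.0% of other weak peaks in that band. This band holds the 14 regions listed at 0 in all 3 ATAC libraries, which cannot pass the cutoff. Over all autosomal peaks 269 were so listed, and both shares of this band are lowered by such peaks. Between 2 and 4 TPM 158 of 278 regions or 56.8% were higher, against 37.7%, and the median log2 change was 0.47 against 0.22. Between 4 and 6 TPM 89 of 240 regions or 37.1% were higher, against 24.3%. Between 6 and 8.4 TPM 53 of 187 regions or 28.3% were higher, against 18.7%. Regions at CHIP peaks had the larger share of higher peaks in all 4 bands. Lower regions were few throughout, at 0, 3, 6 and 7 from the lowest to the highest band, while 11.6% to 16.7% of the other weak peaks were lower.

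Above the limit the excess of higher peaks was lost. Between 8.4 and 12 TPM 14.8% of peaks at CHIP peaks were higher without Chd8, against 15.8% of peaks at none, while 5.05% and 9.37% were lower. Between 12 and 20 TPM the shares were 5.08% and 11.1%, and between 20 and 30 TPM they were 0.509% and 5.24%. The median log2 change at CHIP peaks went from 0.24 in the band just under the limit to 0.11 just above it, to -0.05 between 12 and 20 TPM and to -0.09 between 20 and 30 TPM. In the same 4 bands the median at no CHIP peak was 0.04, 0.03, 0.01 and -0.03, so that peaks at CHIP peaks still had the higher median from 8.4 to 12 TPM and the lower one from 12 to 30 TPM. Over all strong peaks at CHIP peaks 1.83% were higher and 1.55% were lower, and both Chd8-/- mice were under WT in 63.6%. Just under it, the region chr11:74413254-74413922 had 9.2, 8.6 and 7.3 TPM in WT, KO1 and KO2, and chr12:20865264-20866002 had 5.4, 10.0 and 9.7 TPM. Just at it, chr11:86964164-86965062 had 8.6, 8.8 and 7.8 TPM and chr2:151473892-151474638 had 6.8, 9.8 and 8.6 TPM. Positions are in mm39, as the peaks are named by the authors.

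**Figure D3:**
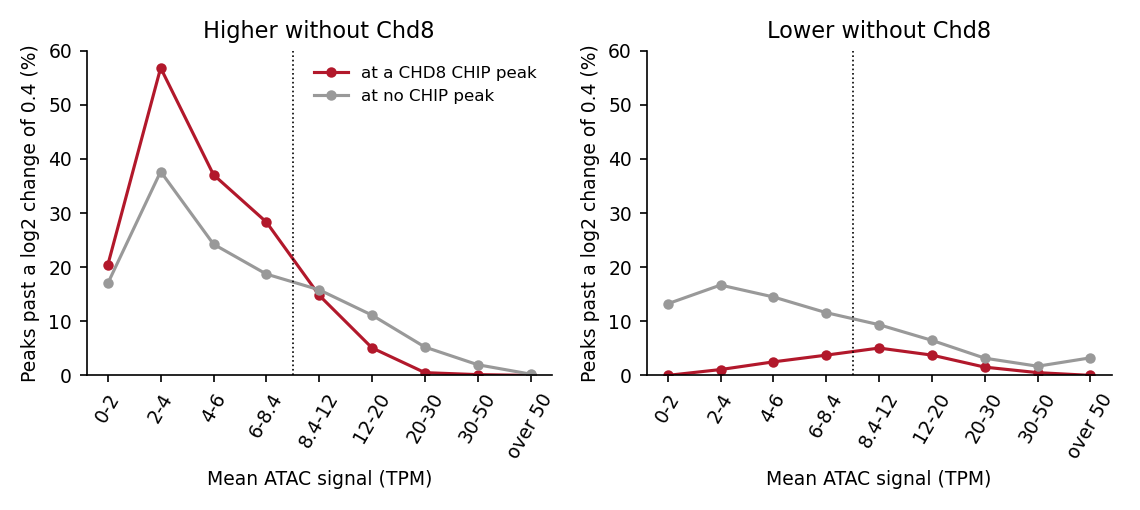
Share of autosomal ATAC peaks past a log2 change of 0.4 upwards (left) and downwards (right) in Chd8-/- Tregs, by band of mean ATAC signal in TPM, for peaks at CHD8 CHIP peaks (red) and at none (grey). The dotted line is the limit of 8.4 TPM. To its left the red points lie above the grey ones for higher peaks, with 56.8% against 37.7% between 2 and 4 TPM, and under them beyond 12 TPM, and red lies under grey for lower peaks in every band.

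The scaling of the libraries bears on the size of these shares. The median log2 change of all autosomal peaks was 0.02, and setting it to 0 left 39.3% of the regions higher and 2.25% lower. After quantile normalization over all peaks, which gives the 3 libraries the same distribution of values, 22.9% of the regions were higher and 3.85% were lower, against 17.9% and 19.1% of other weak peaks of like signal. With the median value of 8.37 TPM as pseudocount in place of 0.84, 1.72% of the regions and 3.03% of the other weak peaks were higher. The choice of weak peaks bears on the shares as well. With the limit of 8.4 TPM put on the WT library alone, 42.5% of 807 regions and 38.1% of other peaks of like WT signal were higher, a gap of 4.42 points. With the limit on the mean of KO1 and KO2 alone, 38.8% of 739 regions and 22.9% of other peaks were higher.

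The regions were broader than other weak peaks. Their median width was 557 bp, with percentiles 10 and 90 at 258 and 1001 bp, against 265 bp for weak peaks at no CHIP peak and 1102 bp for strong peaks at CHIP peaks. Weighted by signal and width together, the other weak peaks were higher in 27.9% and lower in 10.0%, so that the gap among higher peaks was nearly the same as with signal alone and the gap among lower peaks shrank to 7.89 points. By width, the share of regions that were higher was 36.4% of the 44 regions up to 200 bp, 50.7% of 69 up to 300 bp, 46.7% of 150 up to 450 bp, 37.7% of 239 up to 700 bp and 39.3% of 252 wider ones. In the same order 24.2%, 28.2%, 24.2%, 25.6% and 23.9% of the other weak peaks were higher, and the regions had the larger share in each class of width.

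The overlap with CHIP peaks was mostly deep. A median of 84.3% of a region was covered by CHIP peaks, 680 regions were covered by at least 50% and 168 wholly. The centres of a region and its CHIP peak lay a median of 96.5 bp apart. The 754 regions lay at 710 CHIP peaks, so that some share a site, with 47 CHIP peaks holding 2 regions and 2 holding 3. In 32 of these 49 CHIP peaks every region had a change above 0 and in 9 every one had a change under 0. All regions of the site were past the cutoff upwards in 14 of the 49. In 24 regions the CHIP peak also held a strong ATAC peak, and 3 of these or 12.5% were higher without Chd8, against 42.1% of the other 730.

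CHD8 signal at these sites was somewhat lower than at strongly open ones, and the mice with anti-CHD8 libraries differed there. The 686 autosomal CHIP peaks that overlapped weak ATAC peaks only had a median of 131.8 TPM in mouse 1 and 109.8 TPM in mouse 2. The 5061 CHIP peaks at strong ATAC peaks only had 145.3 and 144.9 TPM, and the 1017 at no ATAC peak had 122.8 and 103.2 TPM. The median at weak sites was 0.83 times that at strong sites over the mean of the mice, 0.91 times in mouse 1 and 0.76 times in mouse 2. Mouse 2 was under mouse 1 in 78.4% of the sites at weak ATAC peaks and in 47.3% of those at strong ones. In both mice the sites of weak ATAC peaks lay between those of strong peaks and those without ATAC peaks. The values rest on a median of 67 reads per site in mouse 1 and 77 in mouse 2, counted over the regions from the reads recovered from the TPM values. Signal from IgG libraries was not analysed here, so that these levels are without a background.

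**Figure D4:**
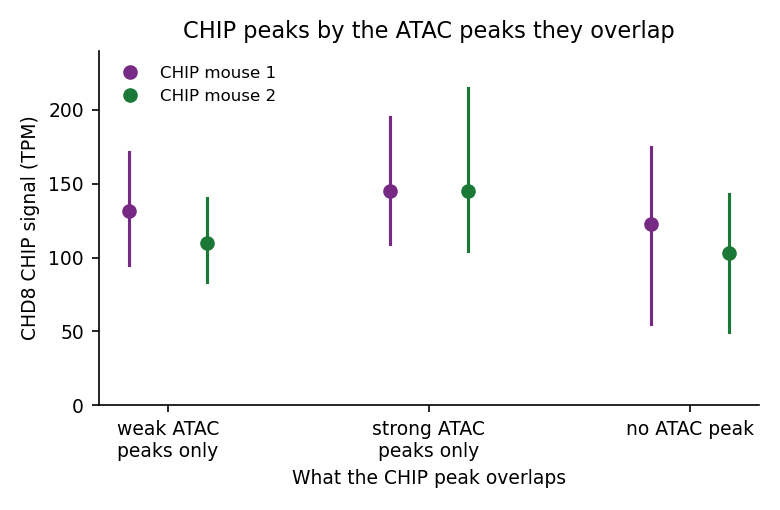
CHD8 CHIP signal in TPM in the 2 mice (violet mouse 1, green mouse 2) for autosomal CHIP peaks that overlap weak ATAC peaks only (686), strong ATAC peaks only (5061) or no ATAC peak (1017). Points are medians over CHIP peaks and lines span percentiles 10 to 90. The medians of the 2 mice are 131.8 and 109.8 TPM at weak peaks and nearly equal at strong peaks.

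Among the regions the CHIP level said little of the change. Across the 740 regions with ATAC signal above 0, which are not independent replicates, Spearman's rho between the mean CHIP level and the log2 change was -0.05. It was 0.20 between CHIP level and ATAC level and -0.26 between ATAC level and change, and the last pair shares its libraries. In 4 equal classes of CHIP level, from the lowest to the highest, 37.6%, 47.9%, 38.3% and 40.7% were higher without Chd8. The CHIP levels of mouse 1 and mouse 2 had a rho of 0.38 over the same regions. Of the remaining 14 regions, listed at 0 in all 3 ATAC libraries, 11 were also listed at 0 in both CHIP mice. They count as neither higher nor lower.

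The regions stood far from strongly open chromatin. Their median distance to the nearest strong ATAC peak was 32.8 kb, against 14.5 kb for weak peaks at no CHIP peak and 4.44 kb for strong peaks at CHIP peaks. The share that was higher without Chd8 went up with that distance. It was 6 of 61 or 9.84% within 1 kb of a strong peak, 49 of 143 or 34.3% from 1 to 10 kb, 91 of 252 or 36.1% from 10 to 50 kb and 164 of 298 or 55.0% beyond 50 kb. Other weak peaks of like signal gave 20.1%, 23.6%, 25.4% and 36.7% in the same classes. The regions within 1 kb of a strong peak were thus higher less often than the other weak peaks at that distance, and those farther away more often. The median signal in these classes went from 6.20 to 5.37, 4.22 and 3.68 TPM, so distance and signal moved together. Over the 550 regions at least 10 kb from a strong peak 46.4% were higher and 1.27% were lower, against 28.5% and 14.8% of other weak peaks of like signal.

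**Figure D5:**
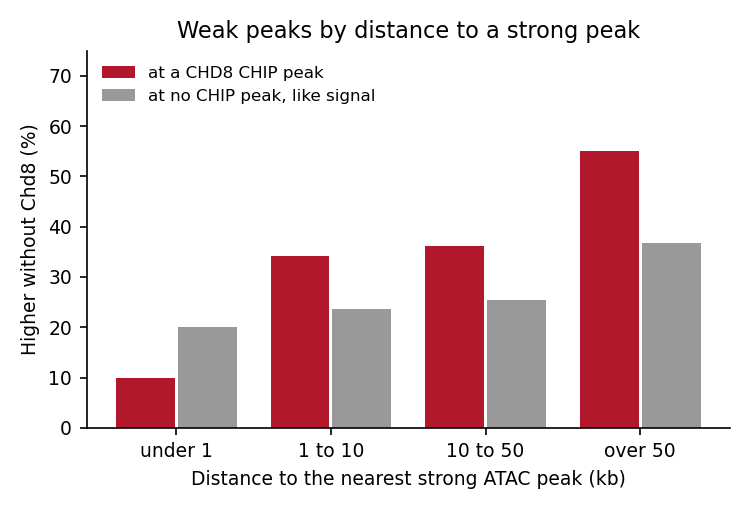
Share of weak peaks past a log2 change of 0.4 upwards in Chd8-/- Tregs, by distance in kb to the nearest strong ATAC peak. Red bars are the 754 weak peaks at CHD8 CHIP peaks and grey bars are weak peaks at no CHIP peak weighted to the same signal. Red goes from 9.84% within 1 kb to 55.0% beyond 50 kb, and grey from 20.1% to 36.7%.

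Peaks next to a higher region were often higher too. Of the 310 higher regions, 155 had another ATAC peak within 10 kb, and that neighbour was higher in 83, or 53.5%, and lower in 2. Of the other regions, 300 had such a neighbour, which was higher in 58, or 19.3%, and lower in 15. The median log2 change of the neighbours was 0.44 and 0.12. Over all autosomal peaks 17.6% were higher and 9.76% were lower, and neighbours of weak peaks at no CHIP peak were not counted. In 40 and 66 cases the neighbour was itself one of the 754 regions. Of all 754 regions 31 overlapped another ATAC peak, so some neighbours may share bases with their region. All neighbours were measured in the same 3 libraries, so the likeness is described only.

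The regions were spread over all autosomes. They made up between 9.35% (chromosome 16) and 17.8% (chromosome 12) of a chromosome's ATAC peaks at CHIP peaks. The share that was higher without Chd8 ran from 6 of 37 or 16.2% on chromosome 7 and 14 of 59 or 23.7% on chromosome 11 to 21 of 35 on chromosome 10 and 16 of 26 or 61.5% on chromosome 19. Over the other weak peaks the same share ran from 21.2% on chromosome 11 to 28.9% on chromosome 18. A chromosome held 20 to 69 regions but far more of the other weak peaks, so the shares of the regions are less precise. Differences between chromosomes were not tested. The median log2 change of the regions was above 0 on each of the 19 chromosomes, from 0.20 on chromosome 17 to 0.52 on chromosome 19.

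The largest differences upwards were at low WT signal. This follows in part from the limit on the mean and from WT being the base of the change. The peak list is a union, so regions low in WT may also have entered it through the Chd8-/- libraries. Which libraries gave each peak was not determined. The region chr5:38316603-38316982 had 1.3 TPM in WT, 5.7 TPM in KO1 and 4.0 TPM in KO2, a log2 change of 1.41. A region of 185 bp on chromosome 18 had 0.9, 3.3 and 3.4 TPM in the same order, a log2 change of 1.27. At chr2:91287765-91287898 the values were 3.1, 10.2 and 7.0 TPM, a log2 change of 1.26. In all 3 both Chd8-/- libraries were above 2 times the WT value in TPM. The region chr19:7143204-7143603 had 1.5 TPM in WT and 5.0 and 4.1 TPM in KO1 and KO2, and chr16:35310696-35311359 had 1.2 TPM in WT and 3.6 and 3.8 TPM. The region chr6:65755739-65756463 was the most open of the 10 largest, with 4.2, 10.5 and 9.8 TPM and a log2 change of 1.12. The other 4, chr19:42243992-42244219, chr13:103470735-103471192, chr10:61618926-61619204 and chr19:59154727-59155123, had 0.7 to 1.4 TPM in WT, 2.8 to 4.7 TPM in KO1 and 2.1 to 3.4 TPM in KO2.

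These 10 regions were covered by CHIP peaks over 64.8% to 100% of their length, so that some ran past the edge of their site, with 113.7 to 193.6 TPM of CHIP signal in mouse 1 and 81.9 to 138.2 TPM in mouse 2. Mouse 2 was the lower in 9 of the 10, the exception being chr2:91287765-91287898 with 124.1 and 133.6 TPM. Their nearest strong ATAC peaks were 12.6 to 224 kb away. Across all 310 higher regions the median signal was 2.5 TPM in WT, 4.8 TPM in KO1 and 4.0 TPM in KO2. The WT value in these regions was at most 6.5 TPM, and the limit and the cutoff together keep it low. Their CHIP medians of 131.7 and 109.4 TPM in mouse 1 and mouse 2 were near the 132.3 and 109.5 TPM of the 428 regions that were neither higher nor lower. Their median distance to a strong peak of 58.3 kb was larger than the 22.7 kb of those 428.

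The 16 lower regions had more signal in WT than the higher ones, which follows in part from WT being the base of the change. Their medians were 7.55 TPM in WT, 5.25 TPM in KO1 and 4.30 TPM in KO2, and KO1 was again above KO2 in 14 of them. The region chr8:84395380-84395551 had 12.7, 7.7 and 4.6 TPM, a log2 change of -0.95, and only 4.09% of it was covered by a CHIP peak. The region chr1:166828119-166828765 had 5.4, 2.8 and 2.5 TPM, a log2 change of -0.84, with 16.4% covered. Both of these overlap a CHIP peak by a margin only. At chr8:14961094-14961952 the values were 11.1, 7.8 and 5.1 TPM with 45.2% covered, and at chr9:21092831-21093316 they were 7.8, 5.1 and 3.9 TPM with 73.6% covered. The fifth, chr2:152256016-152257047, had 10.6, 7.1 and 5.6 TPM with 74.8% covered. Over the 16 lower regions the median covered share was 68.2%, against 87.5% over the 310 higher ones, and the median distance to a strong peak was 6.71 kb. Among the 680 regions covered by at least 50%, 42.8% were higher and 1.47% were lower.

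The 5 regions with the most CHD8 signal did not share a direction. The region chr13:120059174-120059484 had CHIP signal of 429.9 and 354.2 TPM in mouse 1 and mouse 2, and its ATAC signal was 3.0 TPM in WT, 9.2 TPM in KO1 and 5.3 TPM in KO2, a log2 change of 1.08. The region chr14:14182909-14183065, with CHIP signal of 286.7 and 291.3 TPM, had ATAC signal of 4.0, 2.1 and 3.9 TPM, so that KO2 was near WT and KO1 was under both. At chr8:84394566-84395249 the CHIP signal was 247.9 and 163.3 TPM and the ATAC signal 8.3, 6.2 and 4.3 TPM, a log2 change of -0.59. This region lies 132 bp from chr8:84395380-84395551, the one with the most negative change, and both were lower in each Chd8-/- mouse. The 2 others, chr12:99611375-99611463 and chr5:67584148-67585400, had log2 changes of 0.11 and 0.34, with KO1 under WT in the former and KO2 equal to WT in the latter.

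For a few CHIP peaks the study gives the gene it assigned. All 24 of these were found among the CHIP peaks, 21 of them on autosomes, and 17 of the 21 overlapped strong ATAC peaks only. The 4 sites of Cdkn1a, a cyclin-dependent kinase inhibitor, the 3 of Fgl2, a prothrombinase-like effector molecule of Tregs, and the 1 of Bhlhe40, a helix-loop-helix transcription repressor, were among these, as were 8 sites of Hspa5, the ER chaperone BiP. Weak regions were found at 2 other sites assigned to Hspa5, and 1 more such site overlapped no ATAC peak. The region chr2:34803707-34804045 had 8.6 TPM in WT, 8.6 TPM in KO1 and 5.9 TPM in KO2, a log2 change of -0.22, and a strong ATAC peak lay 79 bp away at the same CHIP peak. The region chr2:35511736-35512415 had 5.6, 9.9 and 8.7 TPM, a log2 change of 0.65, so that both Chd8-/- libraries were above WT there. The 2 regions at sites assigned to Hspa5 thus differed, with KO1 equal to WT at the one and far above it at the other. The assignment is that of the study. The positions of the 2 regions are far apart on chromosome 2, so they cannot both lie close to the gene. The distance of each from the gene was not determined here, and a link to its RNA was not tested. Hspa5 RNA was at 255.6 and 246.9 TPM in the WT and at 462.0 and 413.1 TPM in the Chd8-/- libraries. The genotypes do not overlap there, but the share of all genes for which this holds was not counted. The log2 fold change of 0.80 ± 0.16 (SE, n = 2 mice per genotype) had an adjusted p of 0.403 in limma. It does not pass a threshold of 0.05, which 0 of the 15240 genes tested passed. For the other regions, the nearby genes, their position in exons, introns or promoters and their sequences were not analysed here, since a genome or annotation of mm39 was not used.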

How the data were processed

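ATAC-seq and CHIP-seq reads had been trimmed, mapped to mm39 by HISAT2 and freed of duplicates (sambamba) by the authors, who then used MACS2 for peaks, joined those of duplicates and ran featureCounts on the union. TPM for every peak, 1 column per mouse and rounded to 0.1, is what was deposited. How the 2 libraries of a mouse were combined is not given in the sources used here. RNA-seq reads were aligned with STAR and the deposited values are TPM per gene. The number of reads behind single ATAC and RNA values was not derived here, so no counting interval is given. CHIP values were all within 0.15 reads of whole reads after rescaling by length, which gave 549862 and 754775 reads in peaks for mouse 1 and mouse 2.

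Peaks were overlapped with bedtools 2.31.1. The change was log2((mean KO + 0.84)/(WT + 0.84)), with a cutoff of 0.4. The 0.84 is 0.1 times the median of the mean signal over all ATAC peaks, 8.37 TPM, after rounding. Weak peaks at no CHIP peak were weighted to the regions' distribution over bands split at 2, 4 and 6 TPM. The members, the limit and the lists were chosen with earlier results of these data known. RNA was compared as log2(TPM + 1) for genes at 1 TPM or more in 2 or more libraries with limma 3.58.1 in R 4.3.3 (trend, two-sided, Benjamini-Hochberg adjustment over 15240 genes). The steps were tested on simulated data. Python 3.11.15, numpy 2.4.6, pandas 2.3.3 and matplotlib 3.10.9 were used.

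Named regions are the 10 with the largest change past 0.4 and the 5 with the lowest change past -0.4 in each Chd8-/- mouse, the 5 with the highest CHIP mean, 2 on each side of the limit and, beyond this rule, the 2 at sites assigned to Hspa5. Genes near the regions, gene lists by name, IgG libraries and 46 weak peaks at CHIP peaks outside chromosomes 1 to 19 were left out. The alternatives were other pseudocounts, limits, cutoffs and coverage, scaling, each mouse left out and, chosen after seeing the data, width, the limit on 1 genotype and subsets of the regions.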

Additional observations from a re-analysis of the deposited data

How the results depend on the processing

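The direction of the difference between the regions and other weak peaks of like signal turned for higher peaks with a pseudocount of the median value (-1.31 percentage points) and with a log2 cutoff of 1 (-1.35 points), where few peaks are left past the cutoff. With 1 Chd8-/- mouse left out the share of higher regions was 32.8% to 51.2% and the gap 5.44 to 22.8 points, the share of lower regions was 2.12% to 4.64% and its gap -12.54 to -12.04 points, and the median log2 change was 0.24 to 0.42. The ratio of CHIP medians at weak over strong sites was 0.76 to 0.91 with either mouse left out, and 0.83 and 0.82 with at least 50% of the ATAC peak covered and with recovered reads per base.

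The share of higher regions was 1.72% with the median value as pseudocount, 3.85% at a cutoff of 1 and 22.9% after quantile normalization, and the median log2 change was 0.13 with the first and 0.18 with the last. The share of lower regions was 3.98% with a pseudocount of 0.1 TPM, 0.133% with the median value and 0% at a cutoff of 1. The gap among lower peaks was -13.6 points with a pseudocount of 0.1 TPM, -2.14 with the median value, -2.15 at a cutoff of 1, -8.71 with each Chd8-/- mouse past the cutoff, -12.9 with the median of all peaks at 0, -15.3 after quantile normalization, -13.1 with 50% coverage and -15.3 with a limit of 4.2 TPM. With alternatives chosen after seeing the data it was -7.89 for like signal and width, -6.85 with the limit on WT alone, -14.8 with the limit on the Chd8-/- mice alone and -13.5 for regions at least 10 kb from a strong peak. The cause of these shifts was not tested.

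Of 156 log2 changes of the 26 named peaks under alternatives, 152 had the sign first reported, and the 4 others belong to 4 peaks that were not past the cutoff of 0.4. Another pseudocount cannot alter a sign, so only other scaling and leaving out a mouse could have done so. Peaks have no replicate number shared between WT and Chd8-/- mice beyond the first, so a replicate block was fitted for the RNA only. With the replicate block the log2 fold changes of Chd8 and Hspa5 were -0.95 (adjusted p = 0.585 in limma) and 0.80 (adjusted p = 0.552), and neither gene had an adjusted p under 0.05 in any setting. The start-site comparison of RNA near the regions was not run, since positions of genes in mm39 were not used. ATAC shares rest on 1 WT mouse, and the number of reads behind low ATAC values was not derived here.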
